A study of Caenorhabditis elegans with 2 samples.

Results

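Candidate peaks at the transfer RNA genes of the autosomes are described here, from a chromatin immunoprecipitation and sequencing (ChIP-seq) study of the homeodomain protein CEH-45 in the nematode Caenorhabditis elegans. The members are the peaks of the larger ranked list of the series that lie on chromosomes I to V and have their summit within 250 bp of a gene of Ensembl biotype tRNA. There were 329 such peaks among 89976 autosomal and 108916 nuclear candidates. The 1 group of the study consists of 2 biological replicates of strain RW12292. Its allele st12292 is written ceh-45::TY1::EGFP::3xFLAG in the labels, a tag inserted at ceh-45 on chromosome I by CRISPR. Whole late embryos from egg bleaching were used, and the label gives their age as 2 hours. The description names an anti-GFP antibody, whereas the antibody field of the labels reads ceh-45. No second genotype, stage or treatment is part of the series, and the control is not analysed here. Signal brought by the tagged protein therefore cannot be told apart from signal that these genes would give in any such precipitation. In whole embryos, strong binding in few cells and weak binding in many cannot be told apart either.

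Transfer RNAs carry amino acids to the ribosome, and each isotype is named for its amino acid. Their genes are short and are transcribed by RNA polymerase III from a promoter inside the gene, made of an A box near the start and a B box further in. Both boxes are bound by TFIIIC, which places TFIIIB, with the TATA-binding protein, just upstream of the gene. A run of T residues after the gene ends transcription. In C. elegans many tRNA genes lie in introns of protein-coding genes and many exist in several identical copies. CEH-45 belongs to the goosecoid class of homeodomain proteins.

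The sequences that the results turn on are given first, from the RefSeq sequence of assembly WBcel235, which has the ce11 coordinates of the peak lists, 5′ to 3′ on the gene strand. Capitals mark the B box word GTTCGANNC where the gene holds it. The first pair are tRNA-Ile genes of 85 bases that differ at 4 bases and had very different signals, F57F5.t1 (chrV:12002176-12002260, plus strand) and K11C4.t1 (chrV:6917466-6917550, plus strand). W09G10.t1 (tRNA-His, chrII:3521487-3521558, minus strand), Y39B6A.t9 (tRNA-Phe, chrV:19126044-19126116, plus strand) and K06A4.t1 (tRNA-Ala, chrV:9503562-9503633, plus strand) were among the strongest members, and K06A4.t1 lacks the word. W10G11.t2 (tRNA-Thr, chrII:3567610-3567681, minus strand) stands for 8 identical autosomal copies. K11H12.t1 (chrIV:658181-658266, plus strand), the tRNA of selenocysteine, had one of the lowest signals. C52E12.t1 (chrII:7001627-7001698, plus strand) and D1046.t1 (chrIV:8927200-8927273, plus strand) are tRNA pseudogenes, which are not members, with strong peaks.
F57F5.t1: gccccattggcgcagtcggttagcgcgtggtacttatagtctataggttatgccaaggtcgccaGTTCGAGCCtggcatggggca
K11C4.t1: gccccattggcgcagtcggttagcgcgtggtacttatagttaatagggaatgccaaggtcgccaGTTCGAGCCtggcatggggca
W09G10.t1: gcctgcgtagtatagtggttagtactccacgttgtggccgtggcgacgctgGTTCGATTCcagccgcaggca
Y39B6A.t9: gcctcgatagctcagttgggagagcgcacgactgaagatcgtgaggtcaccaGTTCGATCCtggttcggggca
K06A4.t1: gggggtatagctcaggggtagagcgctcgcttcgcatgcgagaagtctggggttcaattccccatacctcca
W10G11.t2: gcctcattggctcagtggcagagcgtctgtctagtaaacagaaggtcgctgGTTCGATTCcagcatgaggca
K11H12.t1: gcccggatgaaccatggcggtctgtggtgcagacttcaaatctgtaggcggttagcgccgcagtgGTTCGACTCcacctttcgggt
C52E12.t1: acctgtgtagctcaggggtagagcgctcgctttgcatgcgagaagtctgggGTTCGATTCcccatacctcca
D1046.t1: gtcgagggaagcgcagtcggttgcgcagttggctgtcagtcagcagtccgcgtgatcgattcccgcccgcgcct

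Most autosomal tRNA genes had a candidate peak, and fewer had one that passed the authors' reproducibility threshold. Of the 336 genes, 295, or 87.8% (exact 95% binomial interval 83.8 to 91.1), had a candidate with its summit within 250 bp, and 79, or 23.5% (19.1 to 28.4), had a peak of the larger thresholded set. A candidate is any peak of the ranked list, whatever its rank. Candidates were common at other short autosomal genes too, at 77.0% of snoRNA, 69.0% of microRNA, 59.5% of snRNA and 26.8% of piRNA genes. The thresholded set holds the peaks that the authors kept. Each candidate carries an irreproducible discovery rate (IDR), which is low for peaks that rank high in both of the lists that were compared. Counted by peak, 76 of the 329 members were in the thresholded set, or 23.1% (18.7 to 28.0). Of all autosomal candidates 0.471% were in that set, and of all nuclear candidates 0.503%. The 76 members made up 17.9% of the 424 autosomal peaks of the thresholded set, although the 329 were only 0.366% of the autosomal candidates. Intervals here and below cover counting error over peaks or genes only, and the depth of the libraries is unknown.

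No test of these differences was made, since neighbouring peaks and genes share sequence and fragments. Some members overlapped each other: the 329 formed 283 separate sites, and the 76 passing members formed 73. In addition, 30 members lay within 250 bp of a second tRNA gene, and 60 genes had 2 candidates. The members nearest to the limit of the window lay 241, 244 and 246 bp from Y71H2AM.t1, K11C4.t1 and ZK994.t2, with signals of 15.3, 18.9 and 19.4. The candidates just beyond it lay 255, 262 and 266 bp from M01E10.t2, F27E11.t1 and W07G4.t1, with signals of 7.40, 46.4 and 22.2. None of these 6 was in the thresholded set.

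The members' signals, which are the authors' peak values, were spread widely. They had a median of 36.6 (order-statistic 95% interval 31.8 to 38.7), against 19.5 (19.4 to 19.5) for the other 89647 autosomal candidates. The lowest member had a signal of 3.03 and the highest 212, against a lowest of 2.00 and a highest of 773 among the other candidates. The 95th percentile of the other candidates was 41.5, and 140 members, or 42.6%, lay above it. Passing members had a median of 94.3 and those that did not pass a median of 28.8. Signal and threshold were not the same measure: 30 passing members lay below the strongest member that did not pass. The 3 passing members with a signal under 30 each overlapped a stronger passing member of the same site.

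**Figure D1:**
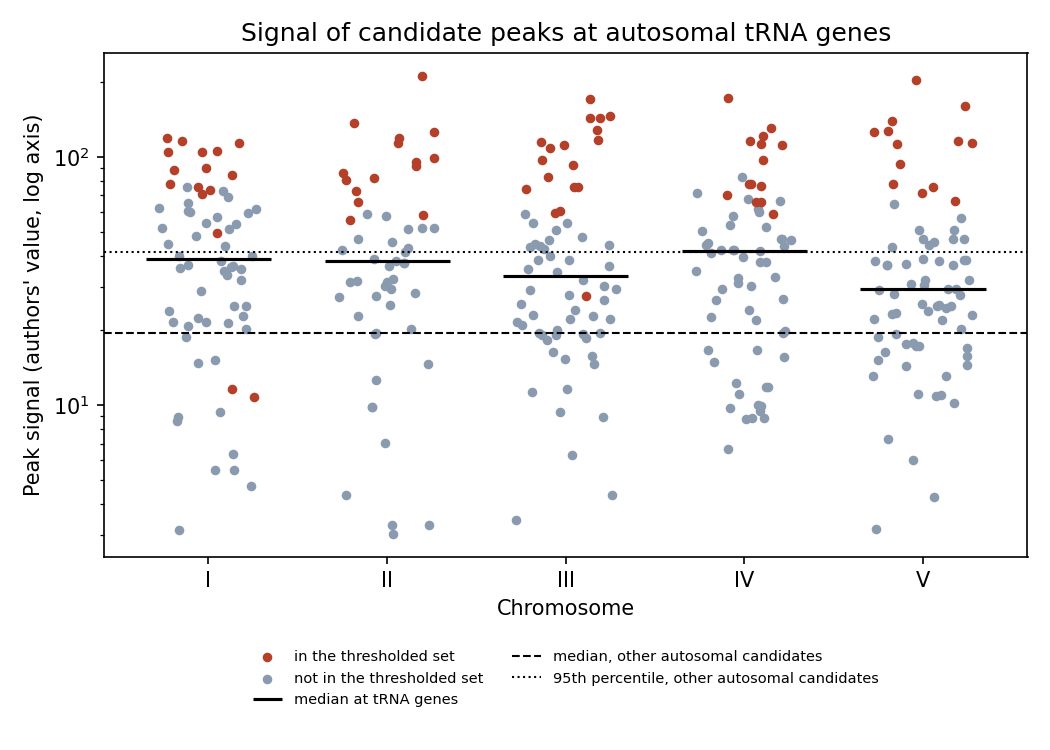
Signal of each of the 329 candidate peaks at autosomal tRNA genes by chromosome, on a log axis, with the 76 members of the thresholded set in red and the other 253 in grey-blue. Solid bars are medians of the members of a chromosome; the dashed line is the median of the other autosomal candidates (19.5) and the dotted line their 95th percentile (41.5). Every chromosome holds members far above the dotted line and members below the dashed line.

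The strongest members were spread over isotypes, and none of the 15 strongest passing ones lay on chromosome I. That chromosome holds 66 of the 336 genes, and its genes were not weak as a set. Their highest signals had a median of 51.5 (38.0 to 61.8), against medians of 32.0 to 45.3 on the other autosomes. The highest member lay at T21B4.t1 (WBGene00014524), a tRNA-Ile gene on the strand opposite to its host in an intron of the collagen gene col-85 (chrII:12494741-12494814). Its signal was 212, and in the replicates' own lists it was 105 in replicate 1 and 108 in replicate 2. ZC455.t1 (tRNA-Ser, chrV:12780386-12780467, intron of ZC455.1) followed with 204, and with 96.4 in replicate 1 and 107 in replicate 2. K08E7.t1 (tRNA-Lys, chrIV:12594740-12594812) lies in an intron of pgp-1, a P-glycoprotein transporter gene, and had 173, with 93.1 in replicate 1 and 76.5 in replicate 2. All 3 were in the own thresholded sets of both replicates.

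The next was sup-5 (WBGene00006314, chrIII:8678497-8678568, minus strand), a tRNA-Trp gene known for amber suppressor mutations, in an intron of fli-1, the flightless homologue. It had a signal of 171, with 93.2 in replicate 1 and 75.6 in replicate 2. Another 5 autosomal genes have the same sequence, and of these sup-29 had 22.6, rtw-6 33, Y95B8A.t1 53.5 and Y4C6B.t2 9.72, none in the thresholded set. The suppressor gene sup-24, also a copy, had no candidate in the larger list. In the list deposited as conservative, it had a peak of signal 74.4 that passed there, with 39.5 in replicate 1 and 33.2 in replicate 2. It was the only gene with a conservative thresholded peak and no candidate in the larger list.

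Among the other members of high signal, F57F5.t1 had 160 in the larger list, with 92.6 in replicate 1 and 64.9 in replicate 2. K11C4.t1, which differs from it at 4 of 85 bases and lies in an intron of unc-68, the ryanodine receptor gene, had 20.2, with 15 in replicate 1 and 13.9 in replicate 2. The pair was chosen after the values were seen. Then came C14B9.t1 (tRNA-Met, 146), F52C9.t1 (tRNA-Thr, 144), F56F3.t1 (tRNA-Arg, 144), F15B9.t1 (tRNA-Ala, in an intron of inft-2, 139) and F35H8.t1 (tRNA-Arg, 137). The list of the 15 strongest closed with F41A4.t1 (tRNA-Asp, 131), T15B12.t1 (tRNA-Met, 129), F28F8.t3 (tRNA-Asp, in an intron of the acetylcholine receptor subunit gene acr-18, 127), W09G10.t1 (tRNA-His, in an intron of the collagen gene col-72, 126) and Y39B6A.t9 (tRNA-Phe, 126). Of these 15 genes, 9 lay in introns and 6 between genes. This is near the make-up of all 336 autosomal tRNA genes, of which 188 lay in introns and 139 between genes.

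The strongest members outside the thresholded set were C05G6.t1 (tRNA-Val, signal 82.8, IDR 0.0173), K07A1.t1 (tRNA-Ser, 75.6, 0.0143), F49D11.t1 (tRNA-Gly, 72.6, 0.160), C43G2.t1 (tRNA-Leu, 71.6, 0.0226) and F22G12.t1 (tRNA-Val, 68.7, 0.0388). C05G6.t1 had 62.1 in replicate 1 and 25.2 in replicate 2, so its replicates were far apart. In the conservative set K07A1.t1, F49D11.t1 and F22G12.t1 did have a peak. No member with an IDR of at most 0.01 was missing from the thresholded set, whereas 124 candidates of all chromosomes were.

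Summits lay over the first part of the genes. Of the passing members, 58 of 76, or 76.3% (exact 95% interval 65.2 to 85.3), had their summit inside the tRNA gene, against 87 of 253, or 34.4% (28.6 to 40.6), of the members that did not pass. A stretch from the first base to 49 bp after it held 67.1% of the passing summits and 24.5% of the others. The median position of passing summits was 18.5 bp after the first base (12 to 28), in genes with a median length of 73 bp. The A box was scored as the word TRGCNNANNNG, where R is A or G. This A box word began at base 8 and the B box word at base 53, both medians over the genes that hold them. Of the 18 passing summits outside a gene, 14 lay upstream and 4 downstream.

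Strength fell off with distance in the same list. The 145 members with a summit inside a gene had a median signal of 56.8, and 40% passed. The 96 members 1 to 100 bp away had a median of 37.7, and 15.6% passed, while the 88 more than 100 bp away had 19.4, and 3.41% passed. The last value was close to the median of candidates elsewhere. Each replicate's own list gave the same place: passing summits had a median position of 14 bp (6 to 29) in replicate 1 and 16 bp (7 to 33) in replicate 2. All members had the same width, 304 bp, with the summit at its centre, which limits the resolution of these positions.

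**Figure D2:**
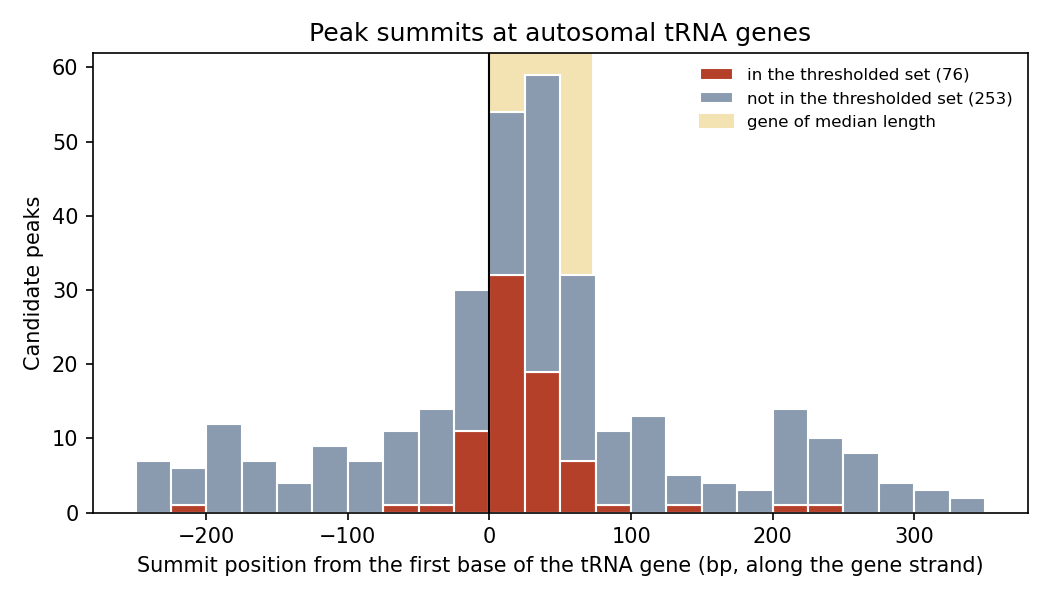
Number of candidate peaks by the position of the summit along the gene strand, in bins of 25 bp, from the first base of the nearest autosomal tRNA gene. Red bars are the 76 members of the thresholded set, grey-blue bars stacked on them the 253 others, and the shaded band a gene of the median length of 72 bp. Passing summits pile up over the first part of the gene, and the others spread over the whole window.

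Candidate peaks were found at every isotype, and the share of genes with a thresholded peak ran unevenly. Of the 28 tRNA-Lys genes, all had a candidate and 12, or 42.9% (exact 95% interval 24.5 to 62.8), had a thresholded peak. Among tRNA-Arg genes 8 of 17 did (47.1%, 23.0 to 72.2), with the highest median signal of the isotypes, 64.5, and tRNA-Cys genes had 3 of 6. At the other end, tRNA-Val genes had 1 of 17 (5.88%, 0.149 to 28.7), tRNA-Tyr 1 of 11, tRNA-Glu 2 of 18 and tRNA-Asp 2 of 15. The intervals of all isotypes overlap one another, and no isotype was tested against another.

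The single gene for selenocysteine, K11H12.t1, had a signal of 8.91 and no candidate in either replicate's own list. For tRNA-Ser 14 of 21 genes had a candidate, and 4 passed. The other isotypes lay between these, with tRNA-Gly, the largest group, at 7 of 35. Their strongest genes were Y116F11A.t1 for tRNA-Asn (116), C37A2.t1 for tRNA-Cys (115.5), T22A3.t1 for tRNA-Gly (119), C04A2.t1 for tRNA-Leu (114), Y4C6B.t1 for tRNA-Gln (96.9), C44B7.t1 for tRNA-Glu (92.3) and T22F7.t1 for tRNA-Tyr (74.1). T23F1.t2 for tRNA-Pro and its neighbour T23F1.t1 for tRNA-Lys shared 1 peak of signal 112. For tRNA-Val the strongest gene, C05G6.t1, was not in the set, and the passing one was Y73B6BL.t1 (77.8).

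**Figure D3:**
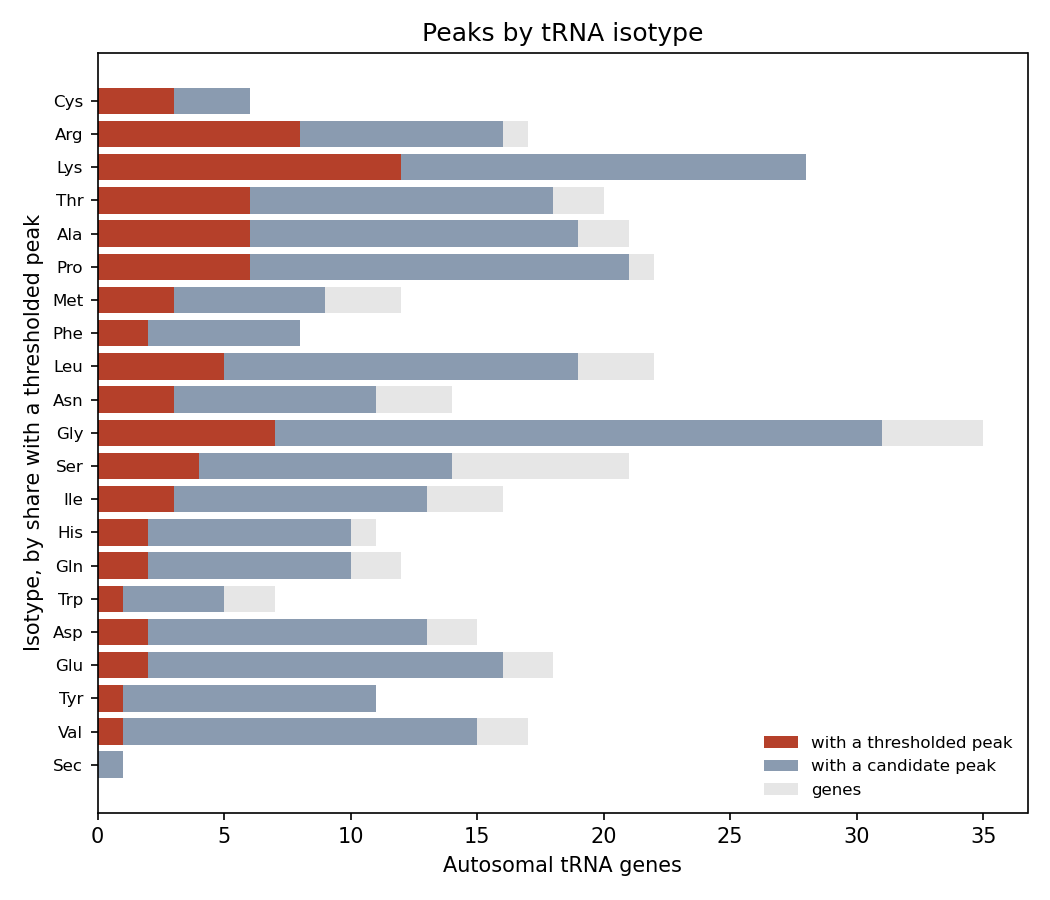
Autosomal tRNA genes by isotype, ordered from the highest share with a thresholded peak at the top. Light bars are all genes of an isotype, grey-blue bars those with a candidate peak and red bars those with a thresholded peak; tRNA-Lys has 12 of 28 and tRNA-Val 1 of 17. The 2 autosomal genes for which RefSeq names no product are left out.

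Copies of the same gene sequence differed from one another. The 336 genes held 137 different sequences, and 43 of these stood in more than 1 autosomal copy, which took in 242 genes. In the 23 sequences with at least 5 autosomal copies, the highest signal was a median of 5.69 times the lowest, and between 1.48 and 18.2 times. These ratios cover only the copies with a candidate, since the others have no signal. In 19 of the 23, some copies had a thresholded peak and others had none, and in the other 4 no copy had one. The sequence of T21B4.t1, in 9 autosomal copies, ran up to 212 at that gene, while the lowest copy with a candidate had 11.7. The sequence of K08E7.t1, in 15 copies, had signals of 18.3 to 173, and 8 copies passed.

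The 8 copies of the W10G11.t2 sequence printed above show this spread in full. W10G11.t2 had 86.0 and C16C8.t2 80.7, and both passed. W02G9.t2 had 64.6, F11H8.t1 51.0, W02G9.t1 46.5, Y39A1A.t1 43.3, ZK994.t3 25.4 and F36D4.t2 16.4, and none of these passed. In the conservative set W02G9.t2 had a peak and C16C8.t2 had none. The 2 that passed have a tRNA-Lys gene beside them, W10G11.t1 and C16C8.t1, with the same peak in the window. Each of these 2 peaks was nearer to the tRNA-Lys gene, with its summit inside W10G11.t1 or 6 bp from C16C8.t1. Their signals therefore cannot be credited to the tRNA-Thr copies alone. All 3 copies of the Y37A1B.t1 sequence (tRNA-Ala) with a candidate stayed below the threshold, at 42.1, 37.9 and 28.4. How reads from identical copies were placed is not stated, and its part in these differences was not tested.

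**Figure D4:**
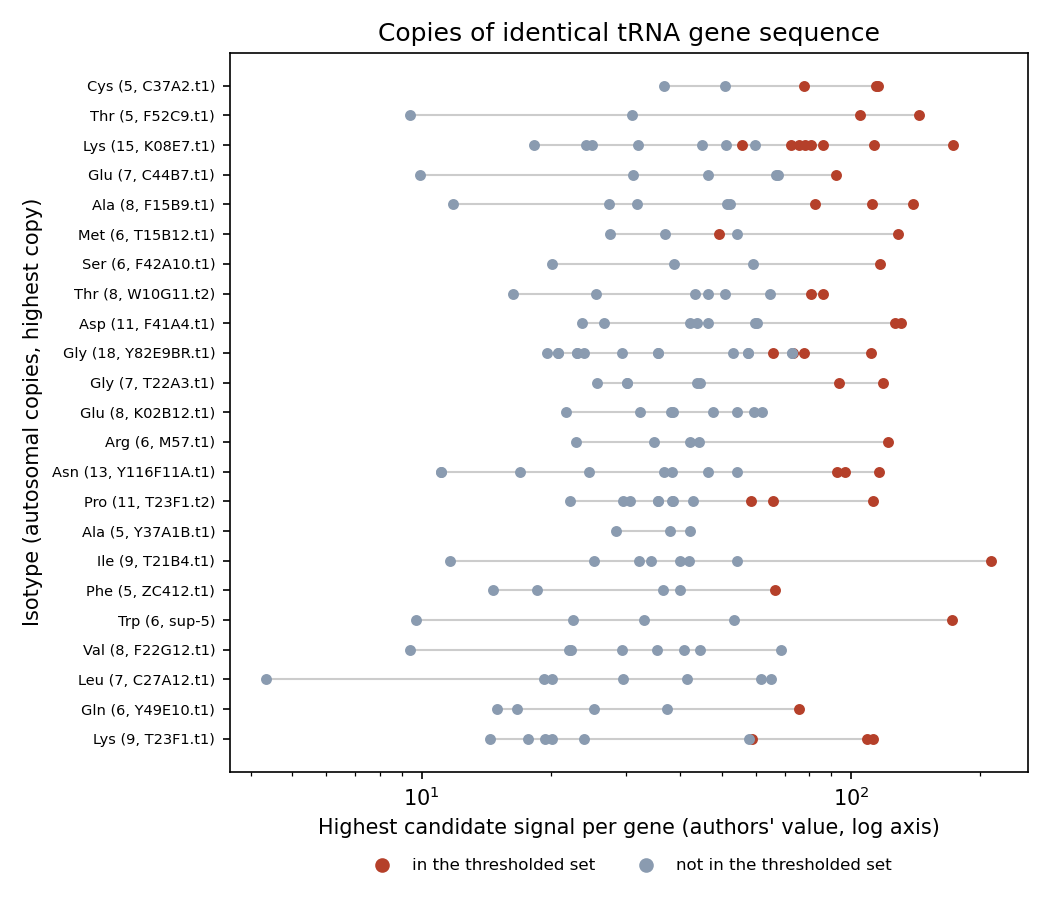
Highest candidate signal of each autosomal tRNA gene, on a log axis, in the 23 sequences with at least 5 identical autosomal copies. Each row is a sequence, named by isotype, number of copies and strongest gene; red points are genes with a thresholded peak and grey-blue points genes without one. In 19 rows both colours occur, and signals within a row span 1.48 to 18.2 times. Copies without a candidate have no signal and are not shown.

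Repetition of sequence was set beside these values. In 251 genes every word of 31 bases occurs more than once in the genome, and 65 of them, or 25.9% (exact 95% interval 20.6 to 31.8), had a thresholded peak. Of the 16 genes in which no word is repeated, 13 had a candidate and none a thresholded peak, which allows a share of up to 20.6%. Their median signal was 26.6, against 44.2 for the genes that are repeated throughout. Among genes with repeats in up to 50% of words, 9 of 39 passed. The part of repetition in the signal was not tested.

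The promoter words were in most genes, with and without a passing peak. The word GTTCGANNC stood in 241 genes, and 22.8% of them had a thresholded peak, against 25.3% of the 95 genes without it. K06A4.t1, printed above without it and lying in an intron of swt-5, passed with a signal of 114, and had 77.7 in replicate 1 and 35.6 in replicate 2. With 1 base freed, GTTCNANNC, it stood in 319 genes, or 94.9%. For the A box word TRGCNNANNNG the shares were 28.3% of 187 genes with it and 17.4% of 149 without (exact 95% intervals 22.0 to 35.4 and 11.7 to 24.5). Other forms of the A box were not counted, so genes without the word need not lack the box. A run of TTTT within 20 bp after the gene stood at 329 genes. The B box word, on either strand, was in the 304 bp window of 67.1% of passing members and 55.3% of all members. It was in that of 6.90% of the other passing autosomal peaks and 2.47% of all other autosomal candidates. These matches describe letters in a window and are shared by tRNA genes as a class.

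Of the 188 genes in introns of protein-coding genes, 49, or 26.1%, had a thresholded peak, against 29 of 139 intergenic genes, or 20.9%. The difference was 5.20 percentage points, and its 95% interval (Newcombe's method) ran from -4.25 to 14.2. In the conservative lists it was 9.70 points (0.697 to 18.1), the only 1 of 9 alternatives with an interval that lacked 0. With only the genes mostly unique in the genome it was -19.0 points (-42.8 to 1.86). Intronic genes on the strand of their host passed in 32 of 110 cases and those on the opposite strand in 17 of 77, or 29.1% and 22.1%. In chromosome centres, from 25 to 75% of the length, 46 of 170 genes passed, or 27.1%, against 33 of 166, or 19.9%, in the arms (difference 7.18 points, -1.91 to 16.1). By chromosome the shares were 21.2% on I, 33.3% on II, 28.1% on III, 19.7% on IV and 17.9% on V, with wide intervals.

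Genes chained to another tRNA gene by gaps of at most 2000 bp formed 53 clusters. Clustered genes more often had a candidate, 111 of 118 or 94.1%, against 184 of 218 single genes or 84.4%. The 30 members near 2 tRNA genes counted for both, which can raise only the counts of clustered genes. The size of this part was not worked out. For thresholded peaks the order was the other way, with 21 of 118, or 17.8%, against 58 of 218, or 26.6% (difference -8.81 points, -17.4 to 0.759). The interval of this difference lay wholly below 0 under 5 of 11 alternative settings, among them the conservative lists at -9.52 points (-17.7 to -0.296), and replicate 1's own lists gave -8.43 points (-14.9 to -0.866), against -3.91 (-10.2 to 3.52) in those of replicate 2. The largest clusters had 4 genes each. On chromosome I, C12C8.t2, C12C8.t3, C12C8.t4 and C12C8.t5 (tRNA-Gly) had signals of 20.8 to 57.4 and none passed. The cluster of Y105C5B.t1 to Y105C5B.t4 on IV (tRNA-Asp and tRNA-Glu) spanned 2083 bp, with 9.93 to 59.7 and none past the threshold. In the cluster of Y65A5A.t1 to Y65A5A.t4, which spans 2584 bp on IV, the tRNA-Ala gene Y65A5A.t2 passed with 112.

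At promoters of protein-coding genes, taken as 500 bp before to 100 bp after a transcript start, lay 58 of the 329 members, or 17.6% (exact 95% interval 13.7 to 22.2), against 15.3% of the other autosomal candidates. Among peaks of the thresholded set, promoters held 10 of the 76 passing members, or 13.2% (exact 95% interval 6.49 to 22.9), against 143 of the other 348 passing autosomal peaks, or 41.1% (35.9 to 46.5). Only 2 members lay within 250 bp of a snoRNA, snRNA or rRNA gene, 1 of them passing. The bases around passing summits had a median GC content of 52.5%, against 50.5% for the other passing autosomal peaks. For all members it was 47.5% and for the other candidates 37.6%. The part of GC content in the signal was not tested.

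In the replicates' own lists, 219 genes had a candidate in replicate 1 and 225 in replicate 2, 179 in both and 71 in neither. Across the 179, Pearson's r of the log10 of the highest signals was 0.69 and Spearman's rho of the signals was 0.70. Genes are not replicates, and identical copies and shared peaks make them dependent. The median absolute log2 ratio of replicate 1 over replicate 2 was 0.36, 15 genes were more than 2-fold apart, and 92 were higher in replicate 1. All 79 genes with a peak of the larger thresholded set had a candidate in replicate 1 and 78 had one in replicate 2.

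The replicates' own thresholded sets took in fewer of the genes. Replicate 1 had 44 genes, or 13.1%, and replicate 2 had 37, or 11.0%, where 0.563% and 0.468% of the autosomal candidates of these lists were in the sets. Both held 27 genes, replicate 1 alone 17 and replicate 2 alone 10. Of the 79 genes of the larger set, 27 were in neither replicate's own set. In the conservative lists 72 genes passed (21.4%), of which 66 were also among the 79, and 0.601% of autosomal candidates passed there.

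**Figure D5:**
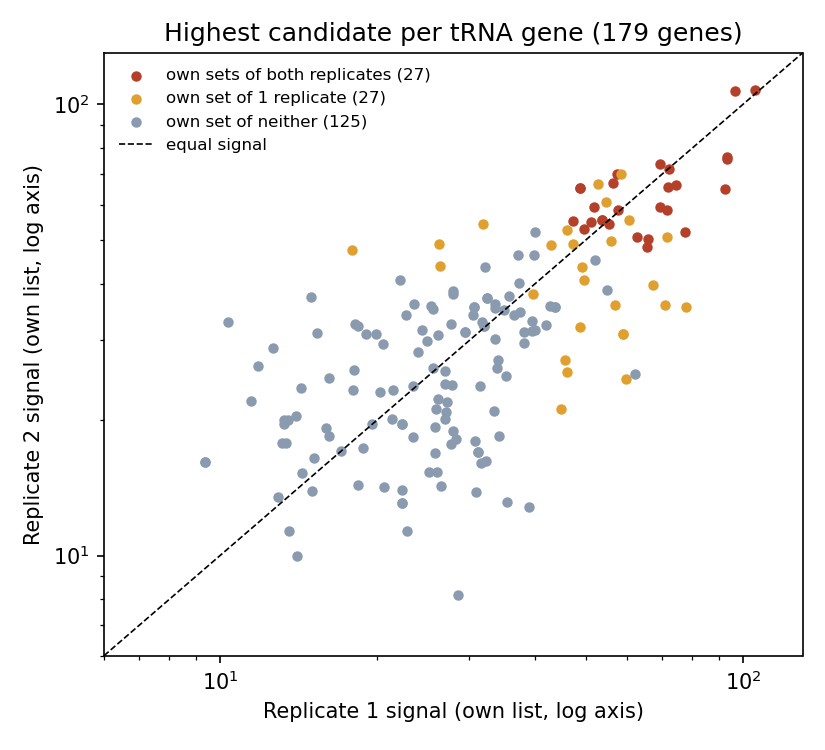
Highest candidate signal per autosomal tRNA gene in the own list of replicate 1 (x axis) and of replicate 2 (y axis), both on log axes, for the 179 genes with a candidate in both. Red points are the 27 genes in both own thresholded sets, yellow points the 27 in 1 of them and grey-blue points the other 125; the dashed line marks equal signal. Points scatter on both sides of the line, with a median absolute log2 ratio of 0.36. Over the 78 of these genes with a peak of the larger thresholded set it was 0.27. Pearson's r of the log10 signals was 0.58 over these 78, against 0.69 over the 179.

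Candidates at autosomal tRNA genes had a median signal of 36.6 (31.8 to 38.7), against 35.4 (27.7 to 40.8) at X-linked tRNA genes. In the thresholded set were 23.1% (18.7 to 28.0) of the autosomal and 28.9% (exact 95% interval 23.2 to 35.2) of the X-linked candidates, and these intervals overlap. By gene, 23.5% of the 336 autosomal and 26.8% of the 276 X-linked tRNA genes had a thresholded peak. The strongest X-linked candidate had a signal of 258.

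The tRNA pseudogenes of the autosomes, taken from RefSeq, were a comparison of similar length. Of the 336 tRNA genes 79 had a thresholded peak (23.5%, 19.1 to 28.4), against 3 of 180 pseudogenes (1.67%, exact 95% interval 0.345 to 4.79). Candidates lay at 87.8% of the genes and 63.9% of the pseudogenes, with median signals of 36.6 and 21.7. The B box word stood in 71.7% of the genes and 74.4% of the pseudogenes, and the A box word in 55.7% and 81.7%. Sequence repetition differed between the classes: 74.7% of the genes and 13.9% of the pseudogenes were repeated throughout, and 4.76% and 55% had no repeated word. Its part in the difference was not tested. The 3 pseudogenes were D1046.t1 with a signal of 213, Y94H6A.t1 with 140 and C52E12.t1 with 112. D1046.t1, close to the strongest autosomal tRNA gene with 212, lacks the word GTTCGANNC.

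Among other short genes of the autosomes, 44 of 313 snoRNA genes (14.1%) had a thresholded peak, 6 of 126 snRNA genes, 3 of 187 microRNA genes and 9 of 15201 piRNA genes. The tRNA genes had the highest of these shares, but the strongest single peak, with a signal of 451, was at a snoRNA gene. No test was made between the classes, which differ in length and repetition.

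Genes linked to RNA polymerase III or to the handling of tRNA were looked at last, from a list of 16 names of which 15 were found in the annotation. None of the 13 protein-coding genes had a thresholded peak between 2000 bp before and 500 bp after a transcript start, a window in which 2.15% of all 19973 nuclear protein-coding genes had one, so a count of 0 is near the background. These include tbp-1, the TATA-binding protein (highest candidate 48.5), brf-1, a TFIIIB subunit (9.70), rpc-1, the largest subunit of RNA polymerase III (26.3), and hoe-1, which encodes the RNase Z that trims tRNA 3' ends (59.0). The genes of the 2 listed catalytic RNAs each had 1, rpr-1, for the RNase P RNA that trims tRNA 5' ends (240), and mrpr-1, for the RNase MRP RNA (140). No share over other RNA genes was computed for this window, so these 2 stand without a background and are not compared with the 13.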

How the data were processed

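Peak lists of the narrowPeak kind, build ce11 per the labels, were deposited by the authors: for the series a larger and a conservative ranked list with their thresholded sets, and for each replicate a list and set of its own. Each deposited signal value is the authors' own, and no source says how it was scaled. The tools for alignment and peak calling are likewise not given in the sources used here. The ranked lists deposited by the authors hold the global IDR as its −log10. The notes list a further, undescribed input for the thresholded sets. The 4 remaining signal columns of the series lists name no sample and were not used.

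Genes came from Ensembl release 115, and tRNA products and pseudogenes from RefSeq, both on WBcel235, which has ce11 coordinates; all 612 nuclear tRNA genes matched RefSeq and 607 had a product. Members, lists and comparisons were chosen with earlier results of these data known. A member is passing when start, end and summit are those of a peak of the thresholded set. A gene in an intron overlaps a protein-coding gene and none of its exons. Words of 31 bases measured repetition on both strands of the nuclear genome. Shares have exact binomial intervals, medians order-statistic intervals and differences of shares Newcombe intervals, all at 95%. There is 1 group, so no p-values were computed. Genes were named by a rule: the 15 strongest passing members, the strongest gene of each isotype, the 5 strongest intronic members, the 3 largest clusters, the 5 strongest members outside the set, the 3 nearest to the limit on each side, and list genes with a thresholded peak. The genes printed as sequences, tRNA-Trp genes, named copies, pseudogenes, Y73B6BL.t1 and further list genes were chosen after their values were seen. The assignment of peaks was tested on simulated peaks. Alternatives are given in the closing section. Python 3.11.15, numpy 2.4.6, pandas 2.3.3, scipy 1.17.1, statsmodels 0.14.6 and matplotlib 3.10.9 were used.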

Additional observations from a re-analysis of the deposited data

How the results depend on the processing

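Of 79 recomputed values, 55 stayed within the interval of the value reported and 24 moved outside it. With the summit within 100 bp, 71.7% of genes had a candidate, 30.3% of members passed and their median signal was 45.3; within 500 bp these were 92.0%, 17.2% and 29.2. With only the genes mostly unique in the genome, 16.7% of genes and 15.3% of members passed, the median signal was 29.2, the median summit position 37 bp, the intron minus intergenic difference -19.0 points (3 of 34 against 5 of 18 genes) and the centre minus arm difference 17.6 points. In the conservative lists 77.7% of genes had a candidate. At an IDR of at most 0.001, 4.76% of genes and 4.86% of members passed, and with a peak required in the own sets of both replicates 8.04% of genes did. Merged into sites, members had a median signal of 40.9. The cause of these moves was not tested, except that stricter limits keep fewer peaks by construction.

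With 1 replicate's own lists only, leaving out the other, the share of genes with a candidate was 65.2% to 67%, that of genes with a thresholded peak 11.0% to 13.1%, that of members passing 15.6% to 18.7% and the median signal 24.8 to 26.9, on the scale of those lists. The intron minus intergenic difference had an interval that held 0 as reported and in 8 of 9 alternatives, among them mostly unique genes, where its sign turned, and one above 0 in the conservative lists (9.70 points, 0.697 to 18.1). The clustered minus single difference ran from -13.0 to -1.69 points, and its interval lay below 0 in 5 of 11 alternatives: summits within 100 bp, the conservative lists, replicate 1 only, an IDR of at most 0.001 and gaps of up to 5000 bp. For centre minus arm no alternative of 10 had an interval without 0. No paired analysis was possible because the study has a single group. Depth is unknown, so genes without a candidate may hold signal below what the lists report; 31 genes had no candidate in any of the 4 lists.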
